A study of Mus musculus with 10 samples.

Results

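The 4 FGF receptor genes of the mouse, Fgfr1, Fgfr2, Fgfr3 and Fgfr4, were examined for binding of the zinc finger protein PRDM14, which pluripotent cells and primordial germ cells make. Their peaks were taken as every region of the deposited peak list whose peak position lay within 100 kb of a gene span given on the mm9 genome build. In this way 7 of 3608 peaks (0.194%) were found, 3 at Fgfr1, 2 at Fgfr2, 1 at Fgfr3 and 1 at Fgfr4, so no receptor gene was without a peak. Given these genes, peaks were taken by position alone, with no measured value of a peak used. The 4 genes themselves were chosen with earlier results of these data known.

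The peak list comes from 1 library, a chromatin immunoprecipitation with sequencing (ChIP-seq) of mouse embryonic stem (ES) cells of strain C57BL/6 in LIF and serum. These cells were Prdm14-/- and had been rescued by AVI-EGFP-Prdm14, a tagged fusion of EGFP and PRDM14, and the antibody was against GFP. The series holds 10 libraries, each the only member of its group; the other 9 (EGFP-only rescue, wild-type and knockout cells, and inputs) were not analysed here. The tagged protein stands in for the endogenous one; the labels do not state its promoter or its level, and binding was not set against the cells rescued by EGFP alone. There was no replicate, so no test between samples was possible and every comparison below is a description of this list.

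FGF receptors are cell-surface tyrosine kinases. When an FGF ligand binds, the receptors pair, phosphorylate each other and the adaptor FRS2, and pass the signal through RAS to the kinase ERK. In ES cells, FGF4 made by the cells themselves drives this pathway, and ERK activity moves them out of the naive state towards lineage commitment; in the blastocyst, FGF signalling directs inner cell mass cells to primitive endoderm. Fgfr1 is the receptor gene most used by ES cells and the epiblast, and Fgfr2 acts beside it in primitive endoderm. Fgfr3 is best known for restraining growth of cartilage, and Fgfr4 for the control of bile acid synthesis in the liver. The study's title names signalling as one of the pathways through which PRDM14 acts.

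The gene starts themselves differed in base composition. This is shown here for Fgfr2, which has a peak 2.62 kb inside its 5′ edge, and for Fgfr4, which has none near that edge. Unlike the main Fgfr1 peak, the Fgfr2 peak interval does not reach the edge of the span. Whether base composition goes with binding was not tested. Fgfr1 could not be shown, as the promoter table used here has no entry for it. The sequences are the 250 bases before the annotated start, from RefSeq on build GRCm38.p6, read 5′ to 3′ on the strand of the gene. The Fgfr2 stretch lies on the minus strand at chr7:130266809-130267058 and the Fgfr4 stretch on the plus strand at chr13:55152568-55152817. These coordinates belong to another build than the peaks and cannot be set beside them. Capitals mark CG dinucleotides.

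Fgfr2: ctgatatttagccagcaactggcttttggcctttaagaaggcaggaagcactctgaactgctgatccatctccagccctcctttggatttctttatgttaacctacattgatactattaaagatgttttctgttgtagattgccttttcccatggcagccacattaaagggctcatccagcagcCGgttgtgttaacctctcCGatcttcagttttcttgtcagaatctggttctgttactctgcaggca

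Fgfr4: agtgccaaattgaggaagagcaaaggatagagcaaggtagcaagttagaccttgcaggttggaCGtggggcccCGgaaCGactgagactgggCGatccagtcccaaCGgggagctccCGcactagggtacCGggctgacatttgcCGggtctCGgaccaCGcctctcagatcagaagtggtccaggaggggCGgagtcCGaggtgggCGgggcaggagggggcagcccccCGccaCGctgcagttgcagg

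The Fgfr2 stretch had a GC content of 44.0% and held 2 CG dinucleotides, where the median of all 32851 promoter entries was 52.4% and 6. The Fgfr4 stretch had 64.0% GC and 15 CG dinucleotides. Fgfr3 has 2 annotated starts, with 66.8% GC and 19 CG dinucleotides before the first and 72.8% and 24 before the second. A sequence known as the core of the PRDM14 motif, GGTCTCTAA, was in 0 of the 4 entries of these genes on either strand, and in 0.240% of all entries. Its inner letters GTCTCTA were likewise in 0 of the 4, and in 2.85% of all; every match of the longer motif is also a match of the shorter. These windows are not the peaks, whose own sequence was not analysed here, so the count says nothing of the motif within the peaks.

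Fgfr1 carried the strongest binding of the family by height. Its main peak ran from 26623450 to 26625109 on chromosome 8 (mm9), with the peak position at 26624185, at the 5′ edge of the gene span (26624 to 26687 kb). By the span as given it lay 0.185 kb inside, which is less than the rounding of the span to 1 kb. The highest pileup of immunoprecipitated reads there, the height, was 991 reads, the enrichment given by the authors was 191.5 and the width was 1659 bp. This was 11.9 times the median height of the list (83 reads) and 9.44 times the next tallest peak of the 4 genes. It ranked 11th by height among the 3608 peaks, in the upper 0.305%, and was second on chromosome 8. By enrichment it ranked 204th and by width 44th.

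The Fgfr1 span is 63 kb, whereas RefSeq gives the gene 57.0 kb on GRCm38, and which edge the further 6.04 kb belongs to was not determined. The main peak therefore lies at the start of the longer gene model and could be several kb upstream of the RefSeq start. The direction of transcription of Fgfr1, towards higher coordinates, was taken from general knowledge of the locus.

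A pair of much lower peaks flanked this site. The upstream one, at 26596325 on chromosome 8 (26595910 to 26596589), lay 27.7 kb before the span and reached 61 reads, with an enrichment of 22.0 and a width of 679 bp. The downstream one, at 26747445 (26747120 to 26748019), lay 60.4 kb past the end of the span and reached 68 reads, with an enrichment of 74.9 and a width of 899 bp. Both heights were under the list median, but their enrichments lay on opposite sides of its median of 55.8. In the RefSeq gene order, Letm2 and then Nsd3, a histone H3K36 methyltransferase gene, follow Fgfr1 on the side of the downstream peak. Beyond these 3 peaks the chromosome was empty for a long way, with the next peak 918.1 kb below the span (289 reads) and 2333 kb above it (56 reads).

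Fgfr2 held its peaks inside the gene, near its 5′ edge. The gene is read from the minus strand of chromosome 7, with a span of 137305 to 137411 kb. This span is 1.64 kb longer than the RefSeq gene on GRCm38. Which edge the difference belongs to was not determined, so distances from the 5′ edge depend on the gene model. The peak at 137408375 (137407870 to 137408719) lay 2.62 kb inside the 5′ edge, with a height of 105 reads, an enrichment of 79.0 and a width of 849 bp. The peak at 137397425 (137396900 to 137397569) lay 13.6 kb inside, with 61 reads, an enrichment of 25.2 and a width of 669 bp. The first was above the list medians in all 3 measures and the other was below all 3. They were 10.95 kb apart, at one end of a span of 106 kb whose remaining length held no peak, and they share 1 gene and 1 library. The next peak on the 3′ side was 381.2 kb from the gene (87 reads), and on the 5′ side 1796 kb (51 reads).

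Fgfr3 and Fgfr4 had no peak in the gene and 1 each beyond its 3′ end. At Fgfr3 (chromosome 5, 34064 to 34080 kb), the peak at 34162515 (34162080 to 34162839) lay 82.5 kb past the end, the farthest of the 7 from its gene. It reached 81 reads, with an enrichment of 88.3 and a width of 759 bp. At Fgfr4 (chromosome 13, 55253 to 55270 kb), the peak at 55291535 (55290960 to 55291889) lay 21.5 kb past the end and reached 91 reads, with an enrichment of 86.9 and a width of 929 bp. Both peaks were near the list median in height, at ranks 1831 and 1584, and higher in enrichment, at ranks 882 and 900.

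Other genes lie on these sides of the receptors. After Fgfr3 come Letm1 and Nsd2 in the RefSeq gene order, and after Fgfr4 comes Nsd1; Nsd1, Nsd2 and Nsd3 form 1 family of H3K36 methyltransferase genes. Whether the 3 downstream peaks lie within or nearer to these neighbours was not determined, because their positions on mm9 were not analysed here. The same holds for exons and introns, so no peak is placed in an exon, intron or UTR. Proximity does not show which gene a site acts on.

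**Figure D1:**
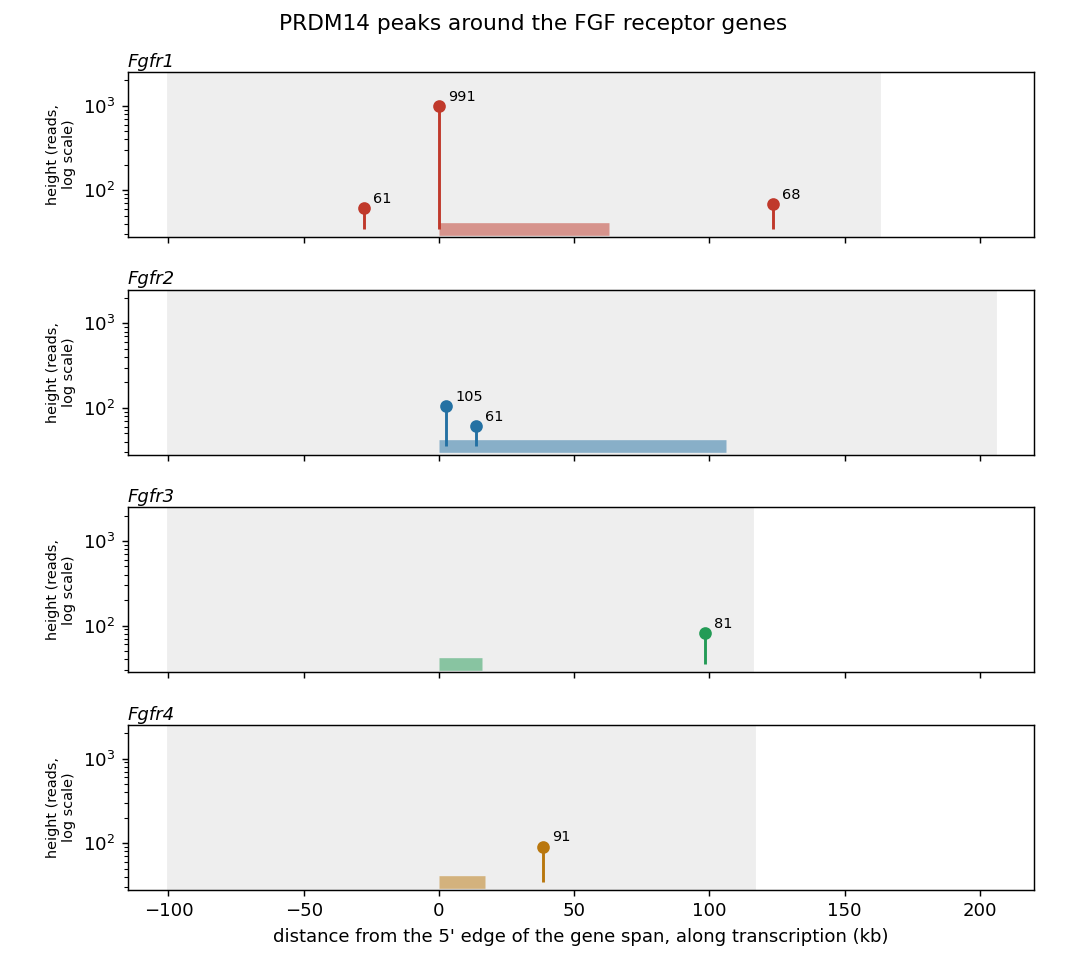
PRDM14 peaks around the 4 FGF receptor genes. The horizontal axis is the distance in kb from the 5′ edge of the gene span, along transcription; bars at the base are the gene spans, grey the area within 100 kb, and stems the peaks with their height in reads (log scale). The peak of 991 reads stands at the 5′ edge of Fgfr1, both Fgfr2 peaks are inside the gene near its 5′ edge, and the peaks of Fgfr3 and Fgfr4 lie past the 3′ end.

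Along the genes, 3 of the 7 peaks lay inside a span as given, 3 downstream and 1 upstream. The main Fgfr1 peak is counted as inside, though its position cannot be told from the span edge. The 3 inside were all within 13.6 kb of a 5′ edge, at Fgfr1 and Fgfr2. Near the limit of 100 kb, the outermost peaks included were those 82.5 kb from Fgfr3 and 60.4 kb from Fgfr1. The first peaks left out were 185.6 kb from Fgfr3, on its 5′ side with 90 reads and an enrichment of 40.0, and 241.2 kb from Fgfr4, also on its 5′ side with 94 reads and an enrichment of 84.3. No peak therefore fell between 82.5 and 185.6 kb of any of the genes.

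The peaks apart from the main one of Fgfr1 were of low to middling height for the list, and their enrichments ran from 22.0 to 88.3. Heights were 61, 61, 68, 81, 91, 105 and 991 reads, with a median of 81 against 83 over all peaks, and 3 of 7 exceeded the list median. Without the main Fgfr1 peak the highest was 105 reads, and the upper quartile of the list was 133. Widths ran from 669 to 1659 bp with a median of 849 bp against 809 bp, and 4 of 7 exceeded the list median. Enrichments ran from 22.0 to 191.5 with a median of 79.0 against 55.8, and 5 of 7 exceeded the list median. No height or width was below the lower quartile of all peaks except those of the peaks with 61 reads, where the quartiles were 62 reads and 699 bp. Their enrichments of 22.0 and 25.2 were also the only ones under the lower quartile of 32.1. The enrichments of 88.3 at Fgfr3 and, barely, 86.9 at Fgfr4 were above the upper quartile of 86.8. In enrichment, 4 of the 6 peaks other than the main one thus lay outside the quartiles. By definition the quartiles leave as many peaks of the list outside as inside, so this count does not set the 6 apart.

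Height and enrichment ordered the 7 peaks differently. The main Fgfr1 peak was first by both, but by unequal margins: it was 9.44 times as high as the Fgfr2 peak of 105 reads, whereas its enrichment of 191.5 stood against 88.3 for the second, at Fgfr3. Per read of height its enrichment was 0.193, the lowest of the 7 and below the lower quartile of the list (0.371). The highest values were 1.10 for the downstream Fgfr1 peak, 1.09 for the Fgfr3 peak and 0.955 for the Fgfr4 peak, against a list median of 0.580 and an upper quartile of 0.922. The Fgfr2 peaks lay between, at 0.753 and 0.414, and the upstream Fgfr1 peak had 0.361. The 3 downstream peaks were thus the 3 with the most enrichment per read; this was seen after the values were known. A chromosome factor was inferred from the values, as the largest quotient of enrichment and height on a chromosome. It ran from 1.10 on chromosome 7 to 1.30 on chromosome 13. After division by it, these 3 downstream peaks stayed ahead of the rest. The enrichment then came to 92.6% of the height at the downstream Fgfr1 peak, 92.6% at Fgfr3 and 73.6% at Fgfr4, against 68.6% or less in the other 4. After this division the enrichments of the 7 peaks were whole numbers, such as 161 at the main Fgfr1 peak, apart from 18.5 at the upstream one. Whether such values are quotients with a small control count was not tested. The order, ranks and quartile places in enrichment of the lower peaks could then turn on a single control read. The control library is not named, and its part in these differences was not tested.

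Peaks of like height (within 10%) give a closer background. For the main Fgfr1 peak there were 8 others, with a median enrichment of 247.1 (quartiles 209.3 and 274.9) and a median width of 1559 bp (1424 and 1594 bp). Its enrichment of 191.5 lay below these quartiles and its width of 1659 bp above them. The Fgfr4 peak was more enriched than the upper quartile of 435 such peaks (82.3) and also wider (909 bp). The downstream Fgfr1 peak likewise exceeded the upper quartiles of 612 peaks in enrichment (63.7) and width (779 bp). The Fgfr3 peak exceeded the upper quartile of 562 peaks in enrichment (73.9), while its width was at the lower quartile (759 bp). The upstream Fgfr1 peak was under the lower quartile of 827 peaks (23.4), and both Fgfr2 peaks were within the quartiles in enrichment. These were 40.7 and 98.8 for the 381 peaks around 105 reads, and 23.4 and 58.2 for those around 61 reads.

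**Figure D2:**
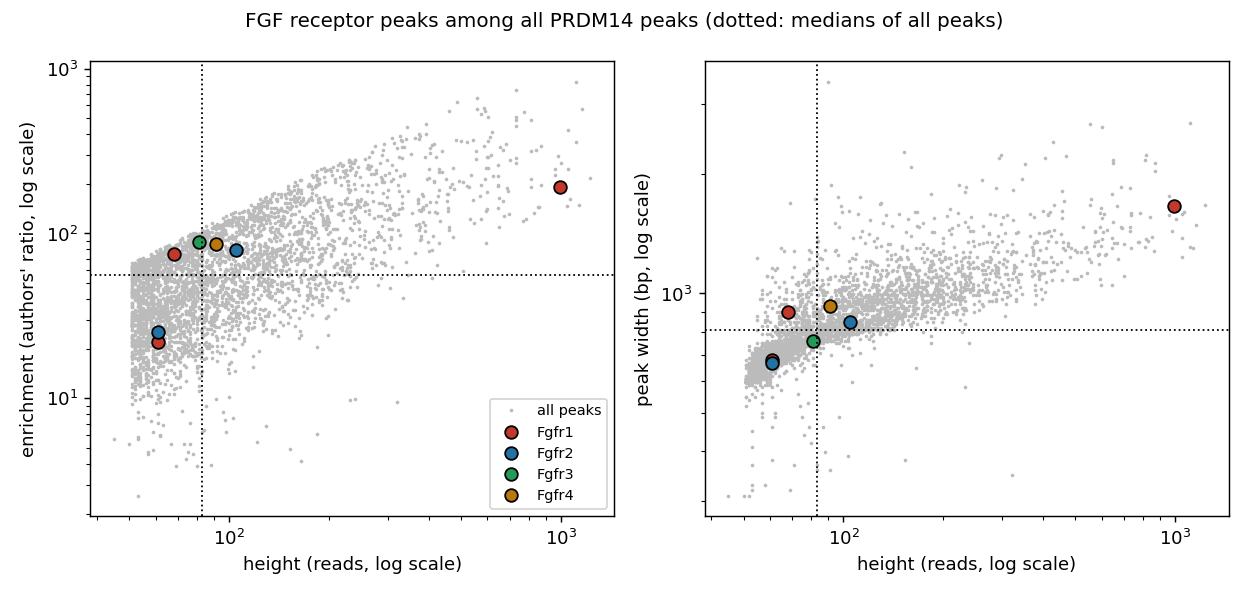
The 7 FGF receptor peaks (coloured by gene) among all 3608 PRDM14 peaks (grey). Both panels have the height in reads on the horizontal log axis. The vertical log axes give the authors' enrichment, taken as a ratio, and the width in bp, and dotted lines are list medians. The Fgfr1 peak of 991 reads lies far to the right at an enrichment of 191.5 and a width of 1659 bp, and the other 6 are between 61 and 105 reads.

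Peaks were denser in the windows of these genes than along the genome as a whole. The genome rate includes gaps and gene-poor stretches, and the density around other genes was not measured. The difference rests on 7 peaks, 3 of them at Fgfr1, and the genes were chosen with earlier results of these data known. The 4 windows, each a span with 100 kb on either side, covered 1002 kb and held 6.99 peaks per Mb, 5.06 times the 1.38 per Mb of the whole list. By gene, the density was 11.4 per Mb at Fgfr1, 6.54 at Fgfr2, 4.63 at Fgfr3 and 4.61 at Fgfr4. The chromosomes carrying them had 1.52 (chromosome 8), 1.47 (chromosome 7), 1.82 (chromosome 5) and 1.42 (chromosome 13) peaks per Mb.

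A fixed grid of adjacent windows of the same length shows how common such counts are. At least 1 peak was found in 24.1% of the 263 kb windows, 27.2% of the 306 kb windows and 20.9% of the 216 kb windows, which match Fgfr1, Fgfr2 and Fgfr3 in length, and in 20.9% of the 217 kb windows for Fgfr4. All 4 genes had at least 1. The 3 peaks at Fgfr1 were reached in 2.58% of windows, and the 2 peaks at Fgfr2 in 9.39%. Counts of 1, as at Fgfr3 and Fgfr4, were thus met or passed by 20.9% of windows. The grid takes no account of genes and includes sequence gaps and gene-poor stretches, and the shares around other genes were not measured.

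**Figure D3:**
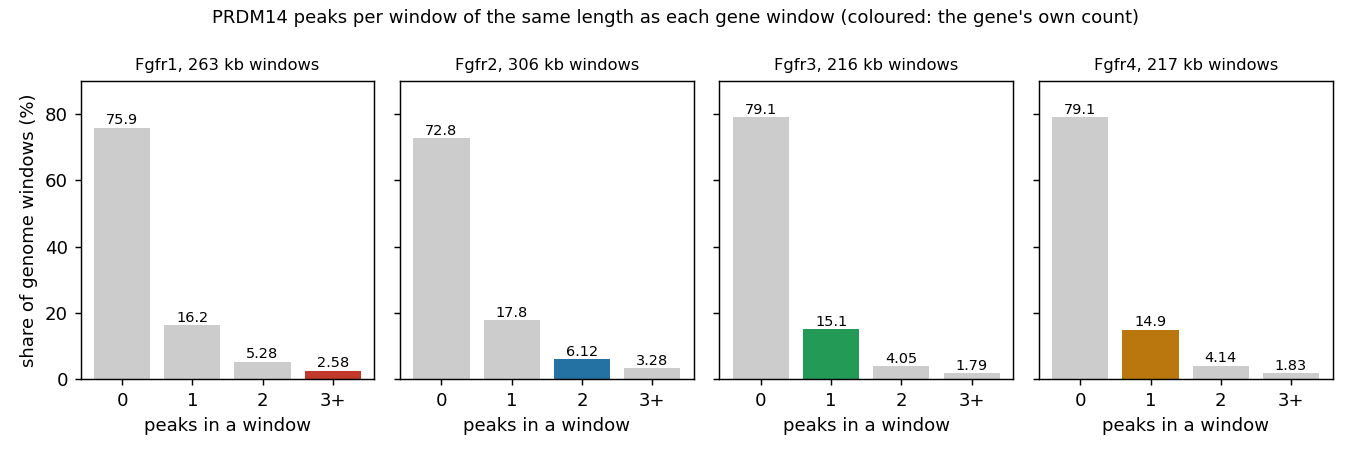
Share of genome windows (vertical axis, %) that hold 0, 1, 2 or at least 3 PRDM14 peaks, for windows as long as that of each gene. Coloured bars mark the count at the gene itself: Fgfr1 is in the class of at least 3 peaks (2.58% of windows), Fgfr2 in that of 2, and Fgfr3 and Fgfr4 in that of 1.

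Of the 7 peaks, 0 had another peak within 10 kb, against 16.2% of all peaks; with so few peaks this does not set them apart from the list, and the Fgfr2 pair at 10.95 kb was just beyond that distance. Within 50 kb, 4 of the 7 had a neighbour, against 36.4% of all peaks: the Fgfr2 pair, and the main and upstream peaks of Fgfr1, 27.9 kb apart. Each pair is counted from both ends, so this count does not set the 7 apart from the list either. The other 3 had no neighbour at this scale: the nearest other peak was 123.3 kb from the downstream Fgfr1 peak, 284.1 kb from the Fgfr3 peak and 271.1 kb from the Fgfr4 peak.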

How the data were processed

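Binding was measured by ChIP-seq with a GFP antibody in 1 library of the AVI-EGFP-PRDM14 rescue. Positions are on mm9, per the submitters' processing notes. The sources used here name no aligner, peak caller, control or read depth. Per the file headers, the authors deposited for each peak an interval, a position, an enrichment (a ratio), a width, a maximum of the immunoprecipitated signal (the height, a read pileup that is not normalized) and a flag, a score of 3 throughout that no value rests on. The deposited BED list held the same 3608 intervals. The precision of single values is unknown without depth or replicates.

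Gene spans on mm9, rounded to 1 kb, were given with the gene set. The members were chosen with earlier results of these data known. Distances run from the peak position to the nearest span edge. Every peak within 100 kb of a gene was named, with the nearest peaks beyond. The grid of windows ran to the last peak of each chromosome. The chromosome factor is the largest quotient of enrichment and height on a chromosome. Gene order, lengths, promoter sequences and the strands of Fgfr2, Fgfr3 and Fgfr4 came from RefSeq (GRCm38.p6). All 4 genes matched there by symbol and 3 had promoter entries. The strand of Fgfr1 was taken from general knowledge of the locus. Other FGF pathway genes were not analysed, since their positions on mm9 were not at hand. Assignment, merging and grid were tested on simulated data. Other distances, overlap, merging, cutoffs and grids were tried. Python 3.11.15, NumPy 2.4.6, pandas 2.3.3, SciPy 1.17.1 and matplotlib 3.10.9 were used.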

Additional observations from a re-analysis of the deposited data

How the results depend on the processing

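Of 50 pairs of a result and an alternative setting, 41 stayed near the reported value. For counts, medians and percentiles this meant within 1.5 times of it. For shares of windows it meant within the 95% Wilson interval (counting error only). The limit of 1.5 times also passes the drop to 5 peaks at 3 genes within 50 kb. Some pairs could hardly move, since the BED list holds the same intervals as the peak list. With the gene span alone, 3 peaks at 2 genes were left, those inside Fgfr1 and Fgfr2. The Fgfr1 peak among them was nearer to the span edge than the rounding of the span. Within 50 kb there were 5 peaks at 3 genes, without Fgfr3, and within 200 kb 8 peaks at 4 genes. Among peaks at or above the median height, 3 peaks were left, at 3 genes. On the gene's own chromosome, the share of windows with as many peaks was 3.87% for Fgfr1, 10.7% for Fgfr2, 25.9% for Fgfr3 and 22.3% for Fgfr4. With the grid started at the first peak of each chromosome, it was 21.7% for Fgfr3 and 21.7% for Fgfr4. Leaving out the main Fgfr1 peak gave a median height of 74.5 reads. This omission and the shifted start were chosen after seeing the data. Leaving out a replicate was not an option with 1 library. No paired analysis was possible because no group had a second sample. Without read depth or replicates, differences of a few reads between heights cannot be told from counting error.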
